A study of Mus musculus with 2 samples.

Results

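Oligodendrocyte precursor cells (OPCs) were described in single-cell RNA profiles of the dentate gyrus of 30-day-old mice. A barcode was kept at 1000 or more UMIs (unique molecular identifiers, counted once per captured transcript), 500 or more genes and at most 20% mitochondrial UMIs. A kept barcode was taken as an OPC when it held at least 5 UMIs of Pdgfra, Cspg4, C1ql1, Lhfpl3 and Matn4 together (the sum P) from at least 3 of these 5 genes, and when P exceeded the sum K of Gpr17, Bmp4 and Enpp6, genes of differentiation-committed precursors. Barcodes with more than 3 UMIs of the oligodendrocyte genes Mog, Ermn and Opalin, or more than 2 of the fibroblast genes Col1a1 and Dcn, the endothelial genes Cldn5 and Flt1 or the microglial genes P2ry12 and Cx3cr1, were left out. 84 of 16636 kept barcodes met this rule. Of these, 23 were among 8255 barcodes of library 1 and 61 among 8381 of library 2.

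The study sequenced 1 library of conditional knockout mice (Nestin-Cre Tg, Phf2flox/flox) and 1 of control mice (Nestin-Cre Tg, Phf2+/+), with 4 mice behind each genotype. Both groups carried the Cre transgene of the strain B6.Cg-Tg(Nes-cre)1Kln/J, whose nestin sequences drive Cre in neural progenitors at large, so recombination is not specific to OPCs. Mice were perfused with PBS and the tissue was dissociated with an enzymatic adult brain kit before 10x Genomics 3' v3.1 capture. The deposited matrix pools both libraries and marks them by a barcode suffix that the labels do not tie to a genotype. The libraries are therefore called library 1 and library 2, and no comparison between genotypes was made.

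OPCs are the proliferating glial progenitors that produce oligodendrocytes throughout life, and in the adult hippocampus they remain spread among neurons from which they receive synapses. PDGF-A acting on the receptor encoded by Pdgfra keeps them dividing and undifferentiated, while OLIG2, SOX10 and OLIG1 set the lineage. On commitment, cells switch off Pdgfra and Cspg4, pass through a stage marked by Gpr17, Bmp4 and Enpp6 (committed precursors, COPs), and then switch on MYRF and the myelin genes.

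The promoters of 3 of the genes that chose the cells are shown because every later value depends on transcripts of these genes. The windows come from RefSeq (GRCm38.p6) and run from 250 bases before to 50 bases after the gene start, 5′ to 3′ on the plus strand. Capitals mark the E-box CANNTG, a motif that basic helix-loop-helix factors such as OLIG2 can bind, and that reads the same on both strands.
Pdgfra, chr5:75152001-75152300: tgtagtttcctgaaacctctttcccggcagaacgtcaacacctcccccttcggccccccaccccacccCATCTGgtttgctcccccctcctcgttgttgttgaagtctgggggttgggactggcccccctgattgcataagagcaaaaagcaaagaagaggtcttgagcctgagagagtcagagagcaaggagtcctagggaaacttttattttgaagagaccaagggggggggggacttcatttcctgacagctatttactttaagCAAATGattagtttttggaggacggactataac
Cspg4, chr9:56864854-56865153: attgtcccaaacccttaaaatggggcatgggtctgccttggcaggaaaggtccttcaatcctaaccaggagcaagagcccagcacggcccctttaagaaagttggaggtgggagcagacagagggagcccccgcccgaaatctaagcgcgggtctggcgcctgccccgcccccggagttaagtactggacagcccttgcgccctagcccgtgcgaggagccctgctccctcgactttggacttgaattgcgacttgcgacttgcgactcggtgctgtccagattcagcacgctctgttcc
Lhfpl3, chr5:22745804-22746103: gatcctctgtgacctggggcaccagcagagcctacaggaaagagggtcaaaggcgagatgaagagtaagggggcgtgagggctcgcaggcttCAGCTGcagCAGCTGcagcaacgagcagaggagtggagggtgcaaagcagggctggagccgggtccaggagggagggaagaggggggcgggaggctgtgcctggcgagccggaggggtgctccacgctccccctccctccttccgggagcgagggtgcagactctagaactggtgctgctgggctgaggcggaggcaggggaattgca
The Pdgfra window held 2 E-boxes (CATCTG and CAAATG), the Lhfpl3 window 2 (CAGCTG both times) and the Cspg4 window 0. An E-box was present in 72.3% of 32851 promoter windows of the same length. The SOX-type words ACAAAG and ACAATG and their reverse complements CTTTGT and CATTGT, found in 28.6% of those windows, had no match in the 3 shown. 4 of the 5 rule genes had an entry in the promoter table (Matn4 with 2 windows), and C1ql1 was not matched.

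455 barcodes reached a P of 5, and 122 of these did so with at least 3 of the genes. Among the 122, P did not exceed K in 33, the oligodendrocyte limit was passed in 6, the endothelial limit in 5, the microglial limit in 4 and the fibroblast limit in 0, and a barcode could fail more than 1 of these. All 5 rule genes were detected in 75 members, 4 in 6 and 3 in 3. P per member was 21 at the lowest, 50 at the median and 94 at the highest in library 1, and 5, 41 and 109 in library 2. Nearest to the limit of 5, the members had a P of 5, 7 and 10, and the barcodes just outside had 3 and 4. The member at 5 held no UMI of Olig1, Olig2 or Sox10, whereas the members at 7 and 10 held 6 and 8.

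Library 2 stood apart in 1 respect that touches all later values. 7 of its 61 members carried many transcripts of other cells and held 32.6% of its OPC UMIs. In 2 of them Ttr, the thyroid hormone carrier of choroid plexus, reached 12252 and 12017 UMIs, and neither held a UMI of Olig1, Olig2 or Sox10. Another 2 held 9594 and 125 haemoglobin UMIs, and 3 held 52, 65 and 132 UMIs of neuronal markers, of which Scrublet marked 2 as doublets. These are called mixed barcodes below. The cut-offs for them (100 UMIs of choroid plexus or haemoglobin genes, 40 of neuronal markers) were chosen after the values were seen. Counts of calls refer to all 84 members, and those for the 77 that remain (23 in library 1 and 54 in library 2) are given beside them where a count moves by more than 1 gene. 23 barcode sequences were kept in both libraries, and 0 of the members carried one of them.

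OPCs made up 0.279% of the kept barcodes of library 1 (95% exact Clopper-Pearson interval 0.177% to 0.418%) and 0.728% of library 2 (0.557% to 0.934%), or 0.644% of library 2 without the mixed barcodes. The intervals do not overlap, but they cover counting error only, and each library holds cells of 4 mice that cannot be told apart, so the spread between mice is unknown. The median member held 9297 UMIs in library 1 and 7697 in library 2, from 3799 and 3375 genes. Their summed depth was 214140 UMIs in library 1 and 619584 in library 2. COP-gated cells (at least 5 UMIs of K from at least 2 of its genes) numbered 21 and 33, with medians of 15635 and 12615 UMIs. Oligodendrocyte-gated cells (at least 5 UMIs of Mog, Ermn and Opalin from 2 or more) numbered 279 and 341 in libraries 1 and 2. Astroglia-gated cells (at least 5 UMIs of Aqp4, Gja1, Slc1a3 and Ntsr2 from 3 or more) numbered 1335 and 1588. The astroglia gate set no limit on genes of stem cells or dividing progenitors, so such cells were not separated from astrocytes. Microglia-gated cells, used as background, held at least 3 UMIs of P2ry12 and Cx3cr1 with both detected. The gates also set upper limits. COP-gated cells needed K above P. Oligodendrocyte-gated cells held at most 2 UMIs of P, and fewer UMIs of P and of K than of Mog, Ermn and Opalin. Astroglia-gated and microglia-gated cells held at most 2 UMIs of P and at most 2 of K. Low levels of the rule genes in the last 3 classes were thus set in part by these limits. The oligodendrocyte limit of the OPC rule held for all but oligodendrocyte-gated cells.

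Pdgfra, the PDGF receptor alpha, was detected in 23 of 23 members of library 1, with 6, 17 and 52 UMIs at the lowest, median and highest member. In library 2 it was detected in 61 of 61, with 1, 13 and 48 UMIs. Cspg4, the NG2 proteoglycan, had 1, 7 and 22 UMIs in members of library 1 and 0, 5 and 18 in library 2. Pdgfra was thus present in every member, while in library 2 a few members had no UMI of Cspg4. C1ql1, a secreted C1q-like protein, had 0, 5 and 15 UMIs in library 1 and 0, 7 and 19 in library 2. Lhfpl3, a tetraspan membrane protein, had 3, 12 and 17 UMIs in library 1 and 0, 9 and 22 in library 2. Matn4, the matrix protein matrilin 4, had 1, 4 and 8 UMIs in library 1 and 0, 3 and 12 in library 2. The libraries overlap widely in all 5 genes, and the members at 0 are in library 2 except for 1 member without C1ql1 in library 1. These values chose the cells and are given as a description.

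**Figure D1:**
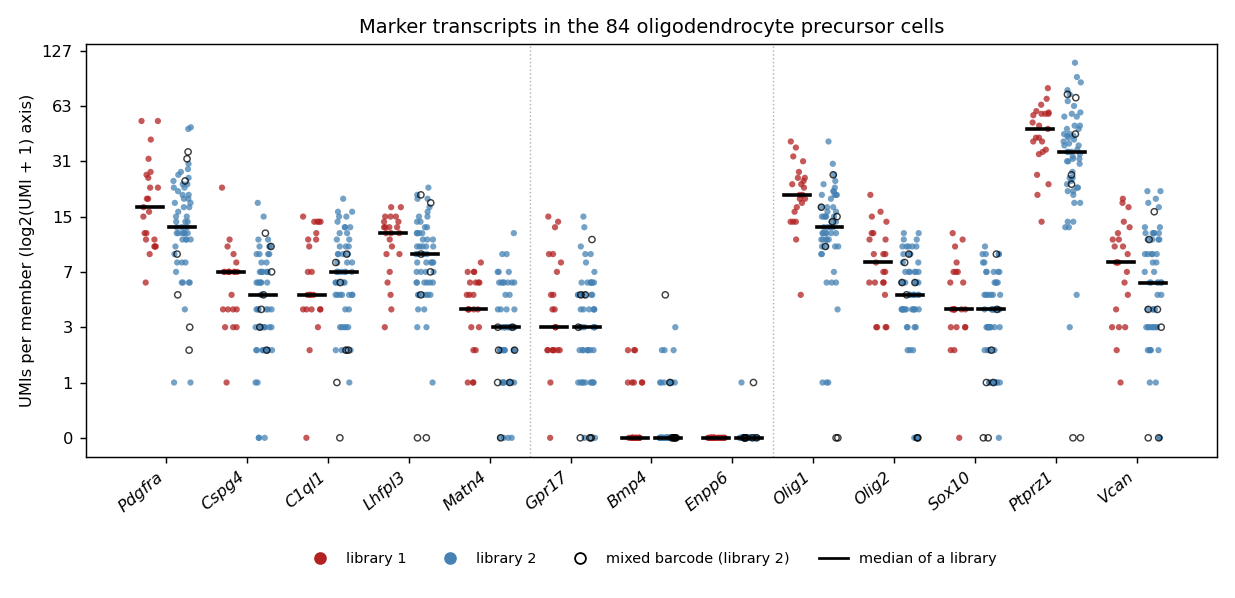
UMIs of 13 genes in each of the 84 OPCs (points, log2(UMI + 1) axis), by library, with the median of each library as a bar and the 7 mixed barcodes of library 2 as open circles. From left to right are the 5 genes of P, the 3 genes of K and 5 OPC genes that the rule did not use; Pdgfra lies between 1 and 52 UMIs in every member, and 2 of the mixed barcodes sit at 0 for Olig1, Olig2, Sox10, Ptprz1 and Vcan.

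Summed over members and scaled to the UMI total of the class (CPM), the levels of the rule genes were far lower outside OPCs, as the gates in part require. Pdgfra stood at 2223 and 1549 CPM in OPCs of libraries 1 and 2, against 0 and 6.98 in COP-gated cells, 0.149 and 0 in oligodendrocyte-gated cells, and 0 and 0.970 in astroglia-gated cells. C1ql1 stood at 813 and 717 CPM in OPCs and at 140 and 223 CPM in COP-gated cells. Both Lhfpl3 and Matn4 were likewise present in COP-gated cells, Lhfpl3 at 1209.5 and 923 CPM in OPCs against 206 and 214, and Matn4 at 472 and 320 CPM in OPCs against 156 and 126. The genes of K ran the other way, as the gates require. Gpr17, a receptor of committed precursors, was still at 546 and 391 CPM in OPCs, against 1714 and 1445 in COP-gated cells, and 95.7% and 90.2% of members held a UMI of it. Bmp4 stood at 51.4 and 37.1 CPM in OPCs against 851 and 986 in COP-gated cells, and Enpp6 at 0 and 3.23 CPM against 1636 and 1396.

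The relatives of the rule genes followed other patterns. C1ql3 was at 318 and 281 CPM in OPCs of libraries 1 and 2, and C1ql2 was at 88.7 and 29.1 CPM, while C1ql4 was at 0. Matn1 was at 0 and 1.61 CPM in OPCs against 59.2 and 62.8 CPM in COP-gated cells, a ratio of 0.0196 (counting interval 0.000485 to 0.115). Lhfpl2 was lower in OPCs, at 42.0 and 22.6 CPM against 305 and 184 CPM in COP-gated cells (log2 fold change -3.19 ± 0.31, SE, adjusted p = 1.49e-06). Pdgfrb, the pericyte PDGF receptor, had 2 UMIs in the OPCs of each library, and Olig3 had 0.

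Markers that the rule did not use were present in most members. Olig1 was found in 100% and 96.7% of members of libraries 1 and 2, Olig2 in 100% and 91.8% and Sox10 in 95.7% and 95.1%. In microglia-gated cells, which should lack these factors and had median depths of 7928 and 7027.5 UMIs, the shares were 2.28% and 2.67% for Olig1, 0.339% and 0.706% for Olig2, and 0.831% and 1.60% for Sox10. Ptprz1, a receptor-type phosphatase that carries chondroitin sulphate, had 14, 47 and 79 UMIs at the lowest, median and highest member of library 1 and 0, 35 and 109 in library 2. Vcan, the proteoglycan versican, had 1, 8 and 19 UMIs in library 1 and 0, 6 and 21 in library 2. Ptprz1 is not particular to OPCs, as 94.6% and 97.5% of astroglia-gated cells of libraries 1 and 2 held a UMI of it. For Vcan those shares were 14.5% and 14.7%. Markers of mature cells were few. Mbp, myelin basic protein, was found in 21.7% and 37.7% of members, against 23.0% and 25.6% of microglia-gated cells, and stood at 23.3 and 62.9 CPM in OPCs, against 34.1 and 45.2 CPM in microglia-gated cells and 539.6 and 402 CPM in the free RNA of barcodes under 100 UMIs.

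Beside OPC transcripts, members held few UMIs of other cell types. 20 OPC genes outside the rule summed to 108, 195 and 334 UMIs at the lowest, median and highest member of library 1 and to 4, 157 and 386 in library 2. Neuronal markers summed to 0, 2 and 5 UMIs in library 1 and 0, 3 and 132 in library 2, and microglial markers to 0, 1 and 4 and to 0, 1 and 11. Astroglial markers summed to 2, 12 and 26 UMIs and to 0, 9 and 120. The highest neuronal sum of library 2 belongs to a mixed barcode. Free Ttr was also unequal between the libraries, at 2041 and 20000 CPM in the free RNA of libraries 1 and 2, and 1 of 23 and 86.9% of members held a Ttr UMI, against 5.47% and 83.6% of astroglia-gated cells.

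OPCs were set against 3 neighbouring classes with counts summed per library and class. The 21 genes used in any gate were left out of the test, and 13321 other genes were tested with edgeR's quasi-likelihood test with the library as a block (Benjamini-Hochberg adjustment over all of them, called at an adjusted p under 0.05). The 8 sums leave 3 residual degrees of freedom. The block takes out the difference between the 2 libraries and holds library and genotype together. The p-values therefore rest on how far class differences disagree between the 2 libraries, over all 4 classes, and not on the spread between mice. Cells were also chosen on RNA from the same cells, so genes that vary with the gate genes were favoured. A fold change is OPC over the other class after TMM scaling, which weighs classes by their shared genes, so it can differ from the ratio of the CPM values printed beside it. In bulk sums of this kind, a difference in level per cell and a difference in the share of expressing cells cannot be told apart.

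**Figure D2:**
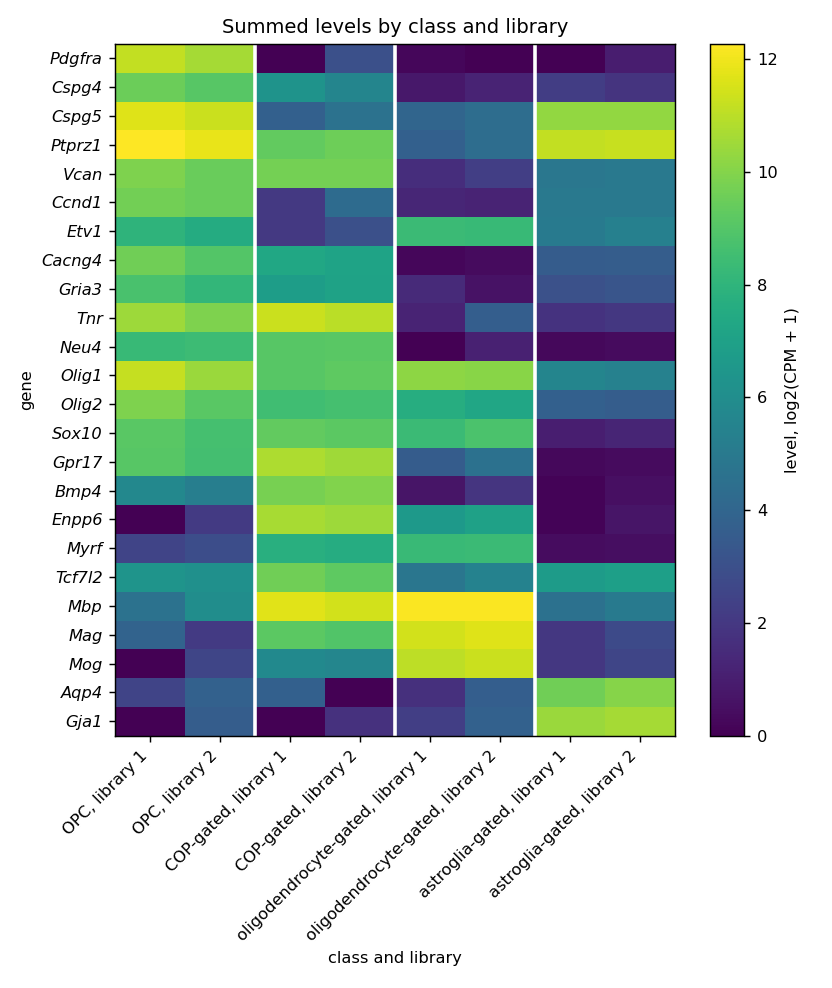
Levels of 24 genes (rows, log2(CPM + 1), colour) in the summed counts of OPCs, COP-gated, oligodendrocyte-gated and astroglia-gated cells of libraries 1 and 2 (columns). Pdgfra, Cspg5 and Ccnd1 are high in both OPC columns and low in COP-gated columns, Olig1, Olig2 and Sox10 run through the 3 lineage classes, and Mbp and Mag rise across the lineage.

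Against COP-gated cells, OPCs had higher levels of the proteoglycan gene Cspg5, of the Notch effector Hes5, of the cyclin D1 gene Ccnd1 and of 13 of 34 glutamate and GABA receptor genes, and lower levels of 16 of 28 premyelinating and myelin genes and of their regulator Myrf. 1148 genes were higher in OPCs (8.62% of those tested) and 1015 lower (7.62%), 16.2% in either direction. Without the mixed barcodes 1074 of 13196 were higher (8.14%) and 1063 lower (8.06%). Higher genes made up 53.1% of the calls with TMM scaling and 64.3% with total-count scaling, which shifts the median of all genes by 0.15 (log2). The median log2 fold change of all genes was 0.11.

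Of 20 OPC genes outside the rule, 12 were higher in OPCs than in COP-gated cells, 3 were lower and 5 did not pass, with a median log2 fold change of 1.50. Cspg5, the brain proteoglycan neuroglycan C, had the smallest p of the list, at 3227 and 2459.7 CPM in OPCs of libraries 1 and 2 against 12.5 and 23.3 CPM in COP-gated cells (7.07 ± 0.30, SE, adjusted p = 3.52e-10). Both OPC sums lay far above both COP-gated sums, and members held 13, 28 and 56 UMIs of it in library 1 and 1, 24 and 63 in library 2 (lowest, median and highest). Cspg5 was also detected in 95.9% and 96.0% of astroglia-gated cells of libraries 1 and 2. Rlbp1, a retinaldehyde-binding protein, followed the same course at 504 and 291 CPM against 12.5 and 6.98 CPM (5.14 ± 0.37). Ptprz1 at 4927 and 3748 against 645 and 749 CPM (2.46 ± 0.22) and Cacng4, an AMPA receptor auxiliary subunit, at 789 and 504 against 156 and 137 CPM (1.92 ± 0.18) were higher but still present in COP-gated cells. The 3 that were lower in OPCs were Neu4, a sialidase (-0.92 ± 0.20, adjusted p = 0.00335), Sox6 (-0.73 ± 0.20, adjusted p = 0.0193) and Tnr, the matrix protein tenascin R (-1.12 ± 0.36, adjusted p = 0.0415). DESeq2 called 0 of this list lower.

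Of 31 lineage transcription factors, 16 were higher in OPCs, 10 lower and 5 did not pass (13 higher and 9 lower without the mixed barcodes). Etv1, an ETS-family factor, stood at 252 and 189 CPM in OPCs against 3.12 and 6.98 CPM in COP-gated cells (5.14 ± 0.42, adjusted p = 2.99e-07). Hes5, a Notch effector, stood at 145 and 159.8 against 6.23 and 11.6 CPM (3.88 ± 0.37). The related Hes1 had 1 UMI over both libraries of COP-gated cells, and the CPM ratio was 159 (counting interval 28.2 to 6332), but 67.8% of its OPC UMIs came from mixed barcodes. For these 3 factors every OPC sum was above every COP-gated sum. The lineage factors themselves differed less: Olig1 by 1.47 ± 0.20 and Olig2 by 0.72 ± 0.19 (adjusted p = 0.013). Lower in OPCs were Myrf, the master regulator of myelin genes, at 4.67 and 6.46 CPM against 212 and 191 CPM (-5.19 ± 0.35), and the differentiation factors Tcf7l2 (-3.38 ± 0.25), Zeb2 (-1.74 ± 0.19) and Nkx2-2 (-1.96 ± 0.22).

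Of 28 premyelinating and myelin genes, 16 were lower in OPCs than in COP-gated cells, 1 was higher and 11 did not pass, with a median log2 fold change of -2.49. The higher one, the carbonic anhydrase gene Car2, owed 86.5% of its OPC UMIs to mixed barcodes and was not called without them. Cldn11, a tight junction protein of myelin, stood at 9.34 and 4.84 CPM in OPCs against 1389.6 and 1042 CPM in COP-gated cells (-7.76 ± 0.37, adjusted p = 6.84e-10), and Mbp at 23.3 and 62.9 against 3405 and 2719 CPM (-6.10 ± 0.33). Every OPC sum of both genes lay below every COP-gated sum. Cnp, an early myelin enzyme, was at 121 and 96.8 CPM against 2717 and 2447 CPM (-4.75 ± 0.24). Mag, the myelin-associated glycoprotein, was at 14.0 and 3.23 against 579.5 and 486 CPM (-6.61 ± 0.44). Parvb, a focal adhesion protein, had no UMI in OPCs, which puts it at least 47.7-fold lower (a floor of 3 counts over both libraries), and the transcript 9630013A20Rik had 3 UMIs, a ratio of 0.00545 (counting interval 0.00112 to 0.0160).

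Among growth factor receptors and their feedback genes, 10 of 26 were higher in OPCs, 1 was lower and 15 did not pass (11 higher and 1 lower without the mixed barcodes). Ntrk2, the receptor of BDNF, stood at 462 and 441 CPM in OPCs against 65.4 and 74.4 CPM in COP-gated cells (2.51 ± 0.25). The Sprouty genes, feedback inhibitors of receptor tyrosine kinases, were higher too. Spry4 was at 126 and 137 CPM in OPCs and had no UMI in COP-gated cells, so that it was at least 33.6-fold higher, and Spry1 was at 135 and 140.4 against 6.23 and 23.3 CPM (2.96 ± 0.43). Their levels separated the classes in both libraries. Pdgfa, the ligand of PDGF receptor alpha, was the lower gene of the list, at 28.0 and 43.6 CPM in OPCs against 153 and 149 CPM in COP-gated cells (-2.07 ± 0.31, adjusted p = 0.000144).

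Neurotransmitter receptors and ion channels followed. Of 34 glutamate and GABA receptor genes, 13 were higher in OPCs than in COP-gated cells and 21 did not pass (16 higher without the mixed barcodes, 7 when only these 2 classes were fitted). Gria3, an AMPA receptor subunit, was at 425 and 279 CPM against 112 and 133 CPM (1.27 ± 0.24), and Grm5, a metabotropic receptor, at 248 and 161 against 59.2 and 39.5 CPM (1.85 ± 0.39). Of 23 ion channel genes, 8 were higher and 2 lower (10 and 2 without the mixed barcodes). Kcnd2, an A-type potassium channel, was at 145 and 144 against 3.12 and 14.0 CPM (3.81 ± 0.49), and Kcnip3, an auxiliary subunit of that channel family, at 369 and 300.2 against 0 and 4.65 CPM, a ratio of 119 (counting interval 32.7 to 990.5). The A-type channel and its partner were thus high in the same class. The lower 2 were the Kv1 channels Kcna1 (-2.72 ± 0.38) and Kcna2 (-1.73 ± 0.26).

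Of 33 proteoglycan and adhesion genes, 12 were higher in OPCs than in COP-gated cells and 8 lower, so the list as a whole leaned neither way (median log2 fold change 0.20). Cntn1, a contactin at axon-glia contacts, was at 1168 and 771 against 159 and 102 CPM (2.72 ± 0.20) and Sdc3, syndecan 3, at 481 and 391 against 15.6 and 41.9 CPM (3.64 ± 0.28). Plxnb3, a semaphorin receptor, was lower at 14.0 and 12.9 against 268 and 288 CPM (-4.55 ± 0.29). Among 23 genes of Notch, Wnt and BMP signalling 6 were higher and 3 lower. The Notch ligand Dll3 was at 65.4 and 48.4 against 3.12 and 9.30 CPM (2.88 ± 0.69), and Smad7, an inhibitor of TGF-beta and BMP signalling, was lower at 32.7 and 43.6 against 262 and 133 CPM (-2.33 ± 0.32). Of 25 genes of cholesterol and fatty acid synthesis, 11 were lower and 1 higher, with Fdps, an enzyme of cholesterol synthesis, at 70.0 and 51.6 against 171 and 223 CPM (-1.95 ± 0.28). The 1 higher gene was the fatty acid desaturase Fads2 (1.76 ± 0.36).

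Among tested genes with 50 or more OPC UMIs per library, the largest differences from COP-gated cells in the OPC direction included Cspg5, Kcnip3 and Ccnd1. Ccnd1 encodes cyclin D1, which couples growth signals to entry into the cell cycle. Ccnd1 stood at 813 and 699 CPM in OPCs against 3.12 and 18.6 CPM in COP-gated cells (5.79 ± 0.29, adjusted p = 1.22e-09). Cdo1, the enzyme that oxidises cysteine, was at 462 and 250.2 against 3.12 and 6.98 CPM (5.78 ± 0.43). Ednrb, the endothelin B receptor, was at 499.7 and 428 against 15.6 and 9.30 CPM (5.08 ± 0.36). In all 3 the OPC sums of both libraries were above those of COP-gated cells. Cdk4, the kinase partner of cyclin D1, was lower in OPCs, at 149 and 119 against 302 and 263 CPM (-1.26 ± 0.19). Other classes' markers moved too: 3 of 5 astroglial markers and 2 of 5 mural markers were called higher in OPCs, and without the mixed barcodes 3 and 0 were. The mural calls were Acta2 and Myh11, with 99.5% and 97.9% of their OPC UMIs in mixed barcodes. The astroglial calls were Aldoc, Slc1a2 and Clu.

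**Figure D3:**
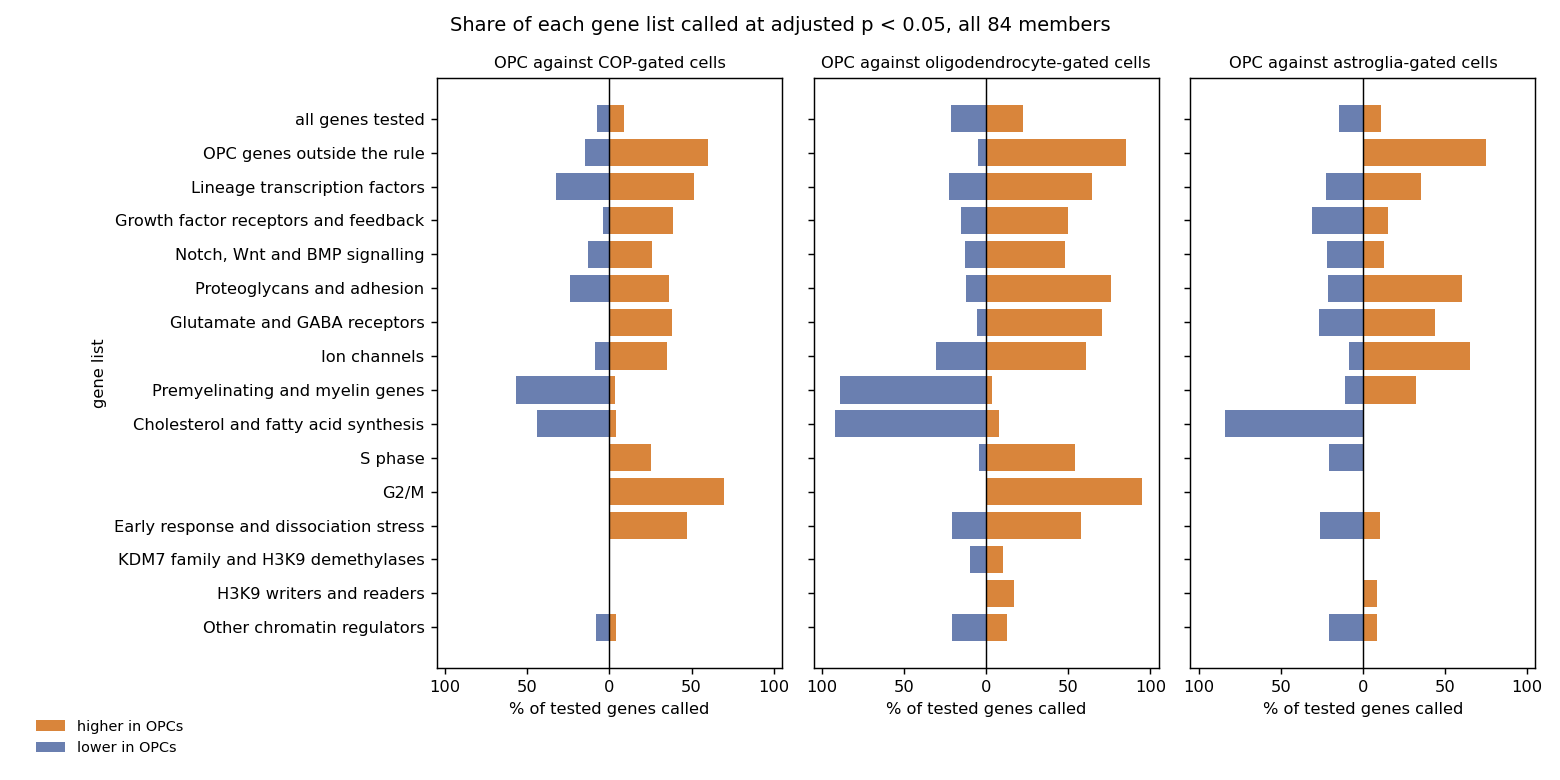
Share of the tested genes of each list (rows) called higher (to the right) or lower (to the left) in OPCs at an adjusted p under 0.05, against COP-gated, oligodendrocyte-gated and astroglia-gated cells (panels), for all 84 members, with all genes tested in the top row. Myelin genes are lower in OPCs in the first 2 panels, cholesterol and fatty acid genes are mostly lower in the last 2, and the G2/M bars in the first 2 panels rest on 4 members.

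Against oligodendrocyte-gated cells, OPCs had lower levels of 25 of 28 premyelinating and myelin genes, and higher levels of 24 of 34 glutamate and GABA receptor genes and of 25 of 33 proteoglycan and adhesion genes. 2979 genes were higher in OPCs (22.4%) and 2863 lower (21.5%), 43.9% in either direction. Without the mixed barcodes 2695 were higher (20.4%) and 2839 lower (21.5%). Higher genes made up 51.0% of the calls with TMM scaling but 81.6% with total-count scaling, which shifts the median of all genes by 0.75 (log2), so fold changes under about that size depend on the scaling. Of the OPC genes outside the rule 17 of 20 were higher and 1 was lower, with a median log2 fold change of 6.59. The lower gene was Sox10, at 551 and 400.3 CPM in OPCs and 333 and 438 CPM in oligodendrocyte-gated cells (-0.51 ± 0.18, adjusted p = 0.0273), and its sign turned to 0.27 with total-count scaling. Its direction in this comparison therefore depends on the scaling, and without the mixed barcodes it was not called.

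Several OPC genes were close to absent from oligodendrocytes. Vcan was at 943 and 705 CPM in OPCs against 2.09 and 3.78 CPM in oligodendrocyte-gated cells (7.30 ± 0.23, adjusted p = 1.04e-12), and Xylt1, which starts the glycosaminoglycan chains of proteoglycans, at 644 and 539 against 1.34 and 1.48 CPM (7.89 ± 0.21). Cacng4 had 3 UMIs in all oligodendrocyte-gated cells, a CPM ratio of 2716 (counting interval 924 to 13216). These matrix and receptor genes were on in every OPC sum. Nxph1, the secreted neurexin ligand neurexophilin 1, was at 458 and 284 against 0.149 and 0.674 CPM (8.84 ± 0.36) and Ccnd1 at 813 and 699 against 1.49 and 1.35 CPM (8.25 ± 0.23). Both are among the 8 largest differences of all genes in this direction.

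Of 31 lineage transcription factors 20 were higher in OPCs than in oligodendrocyte-gated cells and 7 lower (17 and 6 without the mixed barcodes). The SoxD factors Sox6 (6.61 ± 0.29) and Sox5 (5.40 ± 0.26) were higher, and Olig2 was higher by less (1.27 ± 0.17). Nkx6-2, a homeobox factor of mature oligodendrocytes, had no UMI in OPCs and stood at 551 and 639 CPM in oligodendrocyte-gated cells, at least 166-fold lower in OPCs. Myrf was lower as well (-6.48 ± 0.29). Of the 28 myelin genes 25 were lower. Mal, a myelin raft proteolipid, was at 4.67 and 11.3 CPM in OPCs against 12090.0 and 10107 CPM in oligodendrocyte-gated cells (-10.96 ± 0.38). The 1 higher member was Itpr2, a calcium release channel, at 280.2 and 184 against 5.67 and 15.1 CPM (3.60 ± 0.31).

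Most receptor and channel genes were called against oligodendrocyte-gated cells. Of 34 glutamate and GABA receptor genes 24 were higher in OPCs and 2 lower, and of 23 ion channel genes 14 were higher and 7 lower. Gria2, the AMPA receptor subunit that limits calcium entry, was at 1616 and 1307 CPM in OPCs against 47.1 and 34.0 CPM in oligodendrocyte-gated cells (4.39 ± 0.21). Gria3 followed (7.41 ± 0.30), as did Grm5 (5.53 ± 0.37). Both AMPA receptor subunit genes named here were thus higher in OPCs than in oligodendrocyte-gated cells, and Gria3 differed less from COP-gated cells. Kcnip3 (7.92 ± 0.30) and Kcnd2 (5.44 ± 0.35) were higher, while Kcna1 (-5.24 ± 0.32) and Hcn2, a pacemaker channel (-4.86 ± 0.34), were lower. Of the growth factor list 13 of 26 were higher and 4 lower (10 and 4 without the mixed barcodes). Fgfr1 was higher (2.85 ± 0.26), whereas Fgfr2 was at 0 and 3.23 CPM in OPCs against 234 and 239.7 CPM, a ratio of 0.0101 (counting interval 0.00122 to 0.0366), and Erbb3, a neuregulin receptor, was lower (-3.44 ± 0.30).

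Of 33 proteoglycan and adhesion genes 25 were higher in OPCs than in oligodendrocyte-gated cells and 4 lower, and of 23 Notch, Wnt and BMP genes 11 were higher and 3 lower. Notch1, the receptor itself, was at 196 and 140.4 CPM in OPCs against 4.03 and 13.9 CPM (3.35 ± 0.35). Of 25 cholesterol and fatty acid genes 23 were lower in OPCs and 2 higher. Scd2, a stearoyl-CoA desaturase, was at 639.8 and 573 CPM against 3344 and 2852 CPM (-3.13 ± 0.20), and Hmgcs1, an early enzyme of the cholesterol pathway, differed by -2.82 ± 0.22. With total-count scaling 17 of the 25 were still called lower.

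Against astroglia-gated cells, OPCs had higher levels of the lineage factor genes Sox10, Olig1 and Olig2 and of 20 of 33 proteoglycan and adhesion genes, and lower levels of 21 of 25 cholesterol and fatty acid genes and of all 5 astroglial markers outside the gate. 1496 genes were higher in OPCs (11.2%) and 1921 lower (14.4%), 25.7% in either direction. Without the mixed barcodes 1499 were higher (11.4%) and 2132 lower (16.2%). Higher genes made up 43.8% of the calls with TMM scaling and 74.9% with total-count scaling, a shift of 0.47 in the median of all genes. Of the OPC genes outside the rule 15 of 20 were higher and 5 did not pass, and without the mixed barcodes 18 were higher and 1 lower. Sox10 was at 551 and 400.3 CPM in OPCs against 1.05 and 1.41 CPM in astroglia-gated cells (8.01 ± 0.27, adjusted p = 1.6e-12). The other lineage factors followed, Olig2 at 939 and 562 against 12.4 and 11.2 CPM (5.42 ± 0.20) and Olig1 at 2321 and 1361 against 47.3 and 41.4 CPM (4.83 ± 0.22). Neu4 (9.75 ± 0.35) and Tnr (8.22 ± 0.50) were higher as well.

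Outside the lists, Nxph1 had 2 UMIs in all astroglia-gated cells, a ratio of 3435 (counting interval 942 to 28504), and so had Pcdh15, a protocadherin, at 402 and 278 CPM in OPCs, a ratio of 3234 (counting interval 886 to 26847). Pllp, plasmolipin, was at 495 and 369.6 CPM in OPCs against 0.732 and 1.15 CPM (8.24 ± 0.27). Of the receptor list 15 of 34 were higher and 9 lower, and of the ion channels 15 of 23 were higher and 2 lower. Gria4 was at 159 and 134 against 1.15 and 1.32 CPM (6.30 ± 0.27) and the sodium channel gene Scn3a differed by 5.71 ± 0.43, whereas Gabrb1 was lower in OPCs at 23.3 and 35.5 against 493 and 502 CPM (-4.46 ± 0.26). The subunits of these receptors thus differed between the glial classes. Of proteoglycan and adhesion genes 20 of 33 were higher and 7 lower, led by Opcml (5.56 ± 0.18) and Cntn1 (5.58 ± 0.19).

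Growth factor receptors split between OPCs and astroglia. 4 of 26 were higher in OPCs and 8 lower, or 7 and 8 with total-count scaling. Erbb4, a neuregulin receptor, was at 140.1 and 79.1 CPM in OPCs against 2.61 and 1.76 CPM (5.01 ± 0.32) and Erbb3 was higher too (5.58 ± 0.70). Fgfr3 was at 14.0 and 4.84 against 301 and 277 CPM (-5.80 ± 0.43), and Egfr was lower (-4.11 ± 0.36). Of 31 transcription factors 11 were higher and 7 lower, or 12 and 11 without the mixed barcodes. Id4, an inhibitor of helix-loop-helix factors, was at 14.0 and 43.6 against 458 and 559 CPM (-4.40 ± 0.25), with 43.3% of the OPC UMIs in mixed barcodes, and Hes5 was lower in OPCs than in astroglia (-1.83 ± 0.16) although it was higher than in COP-gated cells. Of 25 cholesterol and fatty acid genes 21 were lower, for example Msmo1, a methylsterol monooxygenase, at 98.1 and 88.8 against 476 and 635 CPM (-3.09 ± 0.25). All 5 astroglial markers outside the gate were lower, among them the glutamate transporter Slc1a2 at 864 and 639 against 8155 and 7482 CPM (-3.91 ± 0.24).

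Cell cycle transcripts separated a few members from the rest. Over 20 G2/M genes, which encode mitotic proteins, 55 of the 84 members had 0 UMIs, 20 had 1 to 3, 5 had 4 to 8, 0 had 9 to 20 and 4 had more than 20. The 4 held 575 and 61 UMIs in library 1 and 48 and 27 in library 2, and the one with 27 was a mixed barcode. The first of them carried all 91 Top2a UMIs of library 1 (Top2a encodes the mitotic topoisomerase) and 37 Mki67 UMIs, detected 20 of 20 G2/M genes and held 88.5% of the 650 G2/M UMIs of the library's members. It was also the deepest member of library 1, at 20874 UMIs. Over 24 S-phase genes 19 members reached 5 UMIs, with the highest at 39 in library 1 and 27 in library 2.

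After each cell was thinned to 1000 UMIs, 8.70% of OPCs of library 1 (2 of 23, interval 1.07% to 28.0%) and 1.64% of library 2 (1 of 61, 0.0415% to 8.80%) held at least 2 G2/M UMIs, and unthinned 17.4% and 11.5%. In COP-gated cells 0 of 21 and 0 of 33 did (limits of 16.1% and 10.6%), in astroglia-gated cells 2.02% and 2.33%, and in microglia-gated cells 0.646% and 0.371%. The OPC intervals include the astroglial shares, so a difference in cycling share between these classes was not detectable at this number of cells. At least 2 S-phase UMIs were found after thinning in 3 of 23 OPCs of library 1 (13.0%, interval 2.78% to 33.6%) and 9 of 61 of library 2 (14.8%, 6.98% to 26.2%). In COP-gated cells 0 of 21 and 0 of 33 held them, which allows shares of up to 16.1% and 10.6%, in astroglia-gated cells 4.42% and 4.22%, and in microglia-gated cells 4.83% and 6.20%. Unthinned, the shares were 65.2% and 54.1% of OPCs against 66.7% and 60.6% of the deeper COP-gated cells, so the order of OPCs and COP-gated cells depends on depth and their intervals overlap. Against astroglia-gated cells, the thinned intervals were apart in library 2 (3.28% to 5.33% in astroglia) and overlapped in library 1 (3.38% to 5.66%). At 3 or more S-phase UMIs after thinning, 1 of 23 and 1 of 61 OPCs remained (4.35% and 1.64%). The astroglial shares at that cut-off were 2.62% and 2.20%. The intervals then overlapped in both libraries, so the gap in library 2 depended on the cut-off. Unthinned, 32.8% and 33.6% of the shallower astroglia-gated cells and 63.8% and 60.1% of microglia-gated cells held at least 2 S-phase UMIs.

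**Figure D4:**
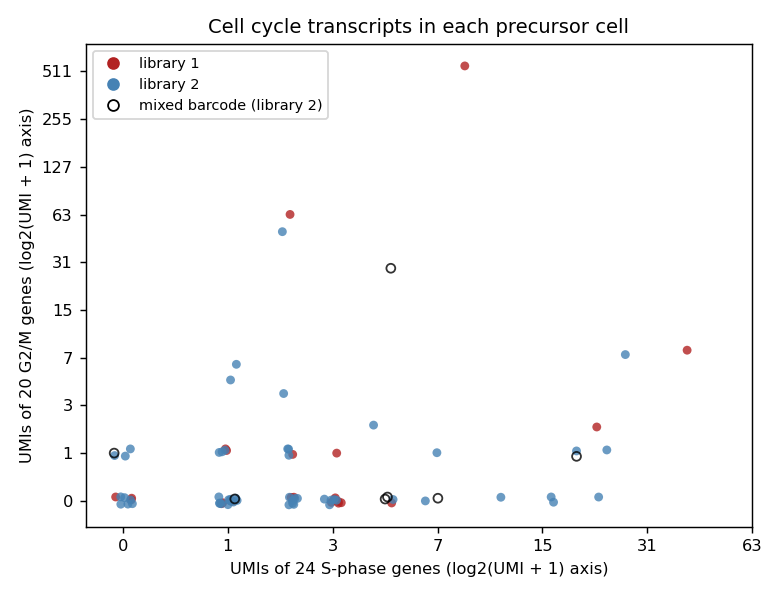
UMIs of 20 G2/M genes (vertical, log2(UMI + 1) axis) against UMIs of 24 S-phase genes (horizontal, log2(UMI + 1) axis) in each OPC, coloured by library, with mixed barcodes as open circles and points spread slightly to show overlaps. 4 members lie above 20 G2/M UMIs, the highest at 575, and most members lie at 0 to 3.

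The G2/M calls in the summed counts rested on these few cells. Against COP-gated cells 14 of 20 G2/M genes were called higher in OPCs, and 16 without the mixed barcodes, but 0 were once the 4 members over 20 G2/M UMIs were left out (edgeR; 2 at an unadjusted p under 0.05), 0 when only these 2 classes were fitted and 2 without the library block. Top2a was at 425 and 24.2 CPM in OPCs with no UMI in COP-gated cells, at least 31.8-fold higher, and Ccnb1, the mitotic cyclin B1, was at 126 and 11.3 CPM against no UMI, at least 10.2-fold. Against oligodendrocyte-gated cells 19 were called higher, and 1 without those members. The members left out were chosen by the same genes, so this only shows on how many cells the calls rest. Of 24 S-phase genes, 6 were called higher against COP-gated cells with the 4 members and 6 without them, but 1 when only these 2 classes were fitted. Mcm4, a subunit of the replicative helicase, was among them (2.74 ± 0.58). Against oligodendrocyte-gated cells 13 S-phase genes were higher, and 12 without the 4 members. Against astroglia-gated cells 0 of 20 G2/M genes were called (edgeR; 0 at an unadjusted p under 0.05, 0 with DESeq2), but 3 were higher in OPCs with total-count scaling and 3 when only these 2 classes were fitted, and 17 were lower once the 4 members were left out of the OPC sums alone. 5 S-phase genes were lower in OPCs than in astroglia-gated cells, 12 at a mitochondrial limit of 10%, and 1 with DESeq2 or with total-count scaling.

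Within OPCs, members were split by K, the sum of the 3 commitment genes, in the 77 members without mixed barcodes. K was 0 in 1 and 3 members of libraries 1 and 2, 1 to 2 in 5 and 15, and 3 or more in 17 and 36. K and P both grow with depth, and members with a K of 3 or more had medians of 9779 and 7662.5 UMIs, against 7334 and 6430 UMIs at a K of 1 to 2. Of 29 genes outside the gates that were followed across this split, the exact Poisson intervals of the CPM were apart in 2 genes in library 1 and 3 in library 2, and in 0 genes in both. The share over all genes was not computed for this split, so these counts describe the 29 genes only and have no background. Tcf7l2 was at 76.5 and 103 CPM at a K of 3 or more and 79.4 and 28.9 CPM at a K of 1 to 2, with overlapping intervals in each library. Ptprz1 was higher at a K of 3 or more in library 2 but not apart in library 1, and Ccnd1 was lower in library 2 and not apart in library 1. Intervals that overlap do not exclude a difference, and library 1 had only 5 members at a K of 1 to 2.

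The libraries were also set side by side within OPCs, without a test because each is 1 sample. 1565 genes had at least 100 UMIs over all members. 16 of them (1.02%) were at least 2-fold higher in library 1 and 33 (2.11%) in library 2, and without the mixed barcodes 6 of 1173 (0.512%) and 1 (0.0853%) were. The 1 gene left in library 2 was Ttr, with 1 UMI in library 1 and 132 in library 2, the transcript that was also higher in the free RNA of library 2. Higher in library 1 were Top2a, with 91 UMIs against 13 in library 2, and Hmgb2, a chromatin protein of dividing cells, at 705 against 196 CPM. All 91 Top2a UMIs and 84 of the 151 Hmgb2 UMIs of library 1 came from the single member with 575 G2/M UMIs. Tsix, the antisense partner of Xist, was at 476 against 127 CPM, and reads of the pair cannot be told apart where the genes overlap unless strand was counted. Tubb4b, a tubulin, was at 271 against 132 CPM and Ddah2 at 248 against 117 CPM. The member with 575 G2/M UMIs held 22 of the 58 Tubb4b UMIs and 14 of the 53 Ddah2 UMIs of library 1, and without it they stood at 186 and 202 CPM in library 1, under 2-fold.

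**Figure D5:**
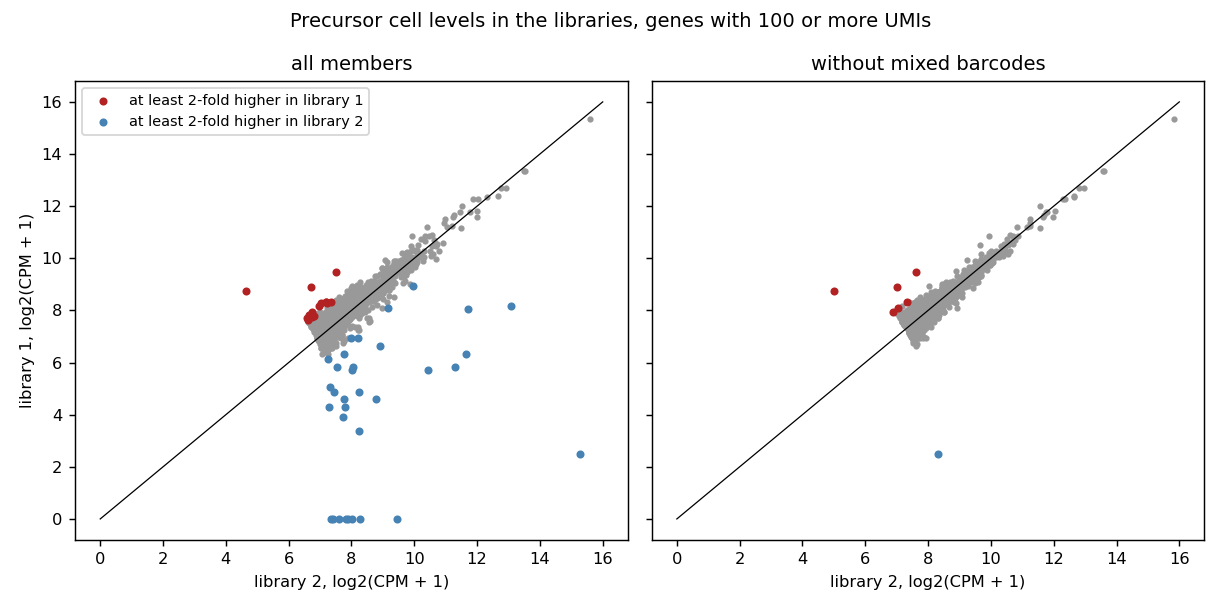
Level of each gene with at least 100 UMIs in OPCs (points, log2(CPM + 1)) in library 1 (vertical) and library 2 (horizontal), for all members (left) and without mixed barcodes (right), with the line of equal levels. 33 genes lie at least 2-fold towards library 2 with all members and 1, Ttr, without the mixed barcodes.

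Phf2, the histone demethylase gene deleted in the knockout, was too sparse in OPCs to read. It had 3 UMIs in 2 of 23 members of library 1 (14.0 CPM, 95% exact Poisson interval 2.89 to 40.9) and 4 UMIs in 4 of 61 members of library 2 (6.46 CPM, 1.76 to 16.5), and free RNA held it at 17.9 and 13.9 CPM. Both intervals include the level of free RNA, so neither presence nor loss of the transcript in OPCs could be detected at this depth. A 3' count also cannot show whether the floxed part was removed. Set against COP-gated cells (21.8 and 11.6 CPM), oligodendrocyte-gated cells (12.2 and 5.93 CPM) and astroglia-gated cells (19.3 and 15.1 CPM), the log2 fold changes were -0.95 ± 0.69, -0.67 ± 0.56 and -1.37 ± 0.51 (SE, adjusted p = 0.399, 0.355 and 0.0598), and none passed.

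Relatives of Phf2 and other chromatin genes were read beside the 16.2%, 43.9% and 25.7% of all genes called in either direction against COP-gated, oligodendrocyte-gated and astroglia-gated cells. Of 10 KDM7 family and H3K9 demethylase genes, edgeR called 0 against COP-gated cells (0 at an unadjusted p under 0.05, and 0 with DESeq2) and 0 against astroglia-gated cells (3 higher and 1 lower unadjusted, 0 with DESeq2, but 4 higher with total-count scaling). Against oligodendrocyte-gated cells Kdm1a, a lysine demethylase, was higher at 145 and 158 against 58.2 and 65.0 CPM (0.56 ± 0.17, adjusted p = 0.0137), and Kdm4a was lower (-1.38 ± 0.26) but was not called with total-count scaling. Of 12 H3K9 methylation writers and readers, 0 were called against COP-gated cells (edgeR; 1 lower at an unadjusted p under 0.05, 0 with DESeq2), 2 were higher against oligodendrocyte-gated cells (Cbx5 and Suv39h2; 11 with total-count scaling) and 1 against astroglia-gated cells (Trim28, not called without the mixed barcodes; 5 with total-count scaling). Of 24 other chromatin regulators, 1 was higher and 2 were lower against COP-gated cells, where Smarca2, a chromatin remodeller, was the higher (1.39 ± 0.25) and Kdm6b, an H3K27 demethylase (-1.42 ± 0.24), and Hdac2 (-1.09 ± 0.30) the lower. Directions against the larger classes depended on scaling. Against oligodendrocyte-gated cells 3 of these 24 were higher and 5 lower with TMM scaling (2 and 7 without the mixed barcodes) but 11 and 3 with total-count scaling, and against astroglia-gated cells 2 and 5 became 8 and 1.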

How the data were processed

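Both libraries are read from 1 deposited matrix of raw UMI counts per gene and barcode, with no per-sample file used here. Reads were processed with Cell Ranger 4.0.0 and Scanpy 1.7.0 on mm10, per the submitters' processing notes. The counts deposited by the authors hold 32285 genes and 13589760 barcodes, 102897659 UMIs in library 1 and 107266420 in library 2. From these counts the kept barcodes, classes, sums, shares and CPM values (UMIs scaled to the class total) were computed (Python 3.11.15, Scanpy 1.11.5). Doublets were marked with Scrublet (226 and 252 kept barcodes, 2 of them members) and left in for the main values.

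The 2-sided quasi-likelihood test of edgeR 4.0.16 (R 4.3.3) was run on sums per library and class, after filterByExpr and TMM scaling, with the library as a block and Benjamini-Hochberg adjustment. DESeq2 1.42.0 was an alternative. Intervals are 95% exact Poisson (CPM) or Clopper-Pearson (shares) and cover counting error only. On simulated counts, the edgeR step at these depths was tested first. The simulation used a smaller spread between sums than the fitted one (coefficient of variation 0.114) and gave all classes the same profile. It therefore checks that the step runs and does not give error rates for these data.

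The members, the gene lists and the rules were chosen with earlier results of these data known. In each comparison the text draws named genes from Phf2, from up to 4 genes per list and direction with the smallest adjusted p, and from the 8 largest folds per direction with at least 50 UMIs in the higher class of each library. Between libraries it takes the 5 largest ratios per direction past 2-fold among genes with at least 100 UMIs. Rule genes and their families are described whatever their values. The gates of the other classes, the mixed-barcode limits and the set of 4 cycling members were fixed after the values were seen. Genotypes could not be assigned, so no genotype effect is reported. Most genes of the lists are given by count only.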

Additional observations from a re-analysis of the deposited data

How the results depend on the processing

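Limits are the number of cells (23 and 61 members), 2 libraries without a genotype, and free RNA. Total-count scaling raised the genes higher in OPCs to 5502 against oligodendrocyte-gated and 3163 against astroglia-gated cells, and lowered those below to 1240 and 1058. DESeq2 called 1279 genes lower against astroglia-gated cells. Across the other alternatives every count of calls over all genes stayed within 1.5 times its main value. Counts within the gene lists moved more, by over 1.5 times (0 included) in 33 of 144 with total-count scaling, 24 without the mixed barcodes, 21 with DESeq2 and 2 to 13 under each other alternative. Without the library (replicate) block 1134 and 1021 genes were called higher and lower against COP-gated cells. The counts were 3058 and 2916 against oligodendrocyte-gated cells and 1551 and 1958 against astroglia-gated cells. Among 366 results, made up of named genes and the 144 list counts, 5 were weaker without the block. Of these, 3 were list counts that fell by over 1.5 times, and the others were named genes that lost their call.

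Subtracting free RNA took shares of 0.482 and 0.577 of OPC UMIs in libraries 1 and 2, set by astroglial markers as an upper limit. This raised Pdgfra to 4281 and 3650 CPM, Cspg4 to 1374 and 1260.0, and C1ql1 to 1563 and 1687. Lhfpl3 rose to 2328 and 2175 CPM and Matn4 to 904 and 746, and Phf2 went to 0 in library 2. As the shares are upper limits, so are the raised levels, and the 0 of Phf2 is a lower limit. Ttr stood at 2041 and 20000 CPM in the free RNA of libraries 1 and 2. In OPCs without the mixed barcodes it stood at 4.67 and 316 CPM. Smaller shares were not tested. Without the mixed barcodes, library 2 OPCs stood at 2037 CPM for Pdgfra, 697 for Cspg4, 997 for C1ql1, 1229 for Lhfpl3 and 446 for Matn4. Without thinning 11.5% of library 2 OPCs had 2 or more G2/M UMIs.

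Genes carried by mixed barcodes turned their sign without them: Slco1c1 to -0.95 and Acta2 to -2.33 against COP-gated cells, Neurod1 to -2.13, Slco1c1 to -2.004 and Acta2 to -1.77 against oligodendrocyte-gated cells, and Myh11 to -0.47 and Acta2 to -4.37 against astroglia-gated cells. Leaving out 1 library (no test), Slco1c1 ranged from -0.62 to 7.66 and Acta2 from -5.01 to 5.84 against COP-gated cells, Neurod1 from -6.18 to 3.14 and Acta2 from -4.12 to 6.04 against oligodendrocyte-gated cells, and Acta2 from -6.01 to 2.97 against astroglia-gated cells. DESeq2 put Neurod1 at -0.078 against oligodendrocyte-gated cells, where total-count scaling put Sox10 at 0.27, Gabbr1 at 0.13, Pcna at 0.16 and Phf2 at 0.0903. Beyond the mixed barcodes, the cause was not tested.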

Other observations

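Genes of the early response to stimulation and dissociation stress were also followed. Against COP-gated cells 9 of 19 were higher in OPCs, and 5 without the mixed barcodes, and against astroglia-gated cells 2 were higher and 5 lower, or 2 and 8 without the mixed barcodes and 5 and 3 with total-count scaling. Fos, an immediate early factor, was at 163 and 245 CPM in OPCs against 34.3 and 37.2 CPM in COP-gated cells (2.42 ± 0.28, SE), with 54.0% of its OPC UMIs in mixed barcodes. Of 8 antigen presentation genes tested 4 were higher in OPCs than in COP-gated cells and 4 than in oligodendrocyte-gated cells, among them the class I gene H2-D1 (1.72 ± 0.34 against COP-gated cells). In those 2 comparisons the count was the same without the mixed barcodes.

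Of 14 G1 regulators 5 were higher in OPCs than in COP-gated cells and 1, Cdk4, was lower. Of 8 neuronal markers 1, Dcx, was higher, and of 3 endothelial markers 1, Slco1c1, or 0 without the mixed barcodes. Of 7 microglial markers edgeR called 0 (0 at an unadjusted p under 0.05, and 0 with DESeq2), and 5 of 7 oligodendrocyte markers outside the gate were lower in OPCs.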
